A study of Homo sapiens with 12 samples.

Results

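The epithelial-mesenchymal regulators examined were 10 genes: the transcription factors SNAI1, SNAI2, ZEB1, ZEB2, TWIST1 and TWIST2, the cadherins CDH1 and CDH2, the intermediate filament protein VIM and the matrix protein FN1. They were taken by symbol from a table of 62262 genes, each matched 1 row, and 9 of the 10 passed the filter on low counts that left 19784 genes for testing. TWIST2, at 1 to 8 counts a library, did not pass. The cells were a human podocyte line, made conditionally immortal with a temperature-sensitive SV40 T gene and differentiated in culture by moving them to the temperature that inactivates it. All 12 cultures shared that line and that differentiation. For 24 h they received DMSO or a calcineurin inhibitor at 100 nM, which was cyclosporine A in the group called CSA, tacrolimus in TAC and voclosporin in VCS, with 3 libraries in each of 4 groups. CSA and VCS are cyclic peptides, VCS being an analog of CSA with an altered side chain on a single residue, and TAC is a macrolide. Calcineurin is the phosphatase through which calcium activates NFAT transcription factors. The labels do not say whether replicates were separate cultures, passages or days, so the p-values measure the spread between these libraries, which may be technical.

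Epithelial-mesenchymal transition is the loss of cell-cell junctions and apical-basal polarity with a gain of migratory and matrix-producing traits. SNAI, ZEB and TWIST factors drive it, in part by binding E-box sequences in the promoter of CDH1 and silencing it, while CDH2, VIM and FN1 mark the mesenchymal state. Podocytes arise from kidney mesenchyme through the opposite transition and keep vimentin in the mature glomerulus, so they are epithelial cells with mesenchymal features. The comparisons ask whether calcineurin inhibition shifts these genes in podocytes.

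Library totals ran from 28808213 to 36077072 counts. Levels are given as CPM (counts scaled to library size), and log2 fold changes come from edgeR's quasi-likelihood fit over all 12 libraries. Mitochondrial transcripts took 9.68 to 13.4% of the counts in the 4 libraries numbered 3 and 5.82 to 8.12% in the other 8, so values with and without those 4 are given where they matter. Of 15 podocyte marker genes, 12 passed the filter on low counts. SYNPO, the gene of the actin-binding protein synaptopodin, averaged 59.9 ± 6.68 CPM with CSA, 55.9 ± 5.70 with TAC, 56.65 ± 7.28 with VCS and 46.3 ± 5.38 with DMSO (SD, n = 3 each). WT1, a transcription factor of the podocyte lineage, lay between 0.854 and 1.22 CPM on average in the 4 groups. NPHS1, the gene of the slit diaphragm protein nephrin and a defining podocyte marker, reached at most 11 counts in a library.

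SNAI and ZEB zinc fingers read the E-box CAGGTG, whose reverse complement is CACCTG. Both are instances of the general E-box CANNTG, and a match overlaps its own general E-box. The 250 bases upstream of annotated transcript starts were searched on both strands, using RefSeq windows on GRCh38.p14. Entries existed for 6 of the 10 genes (ZEB1, ZEB2, TWIST2, CDH2, VIM and FN1), in 13 windows. The hexamer occurred in 2 of the 13 windows, both of ZEB1, against 6143 of all 35116 windows (17.5%). The second of those ZEB1 windows lies within annotated exons and is not shown. The general E-box occurred in 61.8% of all windows. The first ZEB1 window is shown because ZEB1 encodes a factor that reads this hexamer and its own upstream sequence holds it once. It is the plus strand of GRCh38.p14, chr10:31318167-31318416, from RefSeq, with the CAGGTG in capitals.
ZEB1 upstream window: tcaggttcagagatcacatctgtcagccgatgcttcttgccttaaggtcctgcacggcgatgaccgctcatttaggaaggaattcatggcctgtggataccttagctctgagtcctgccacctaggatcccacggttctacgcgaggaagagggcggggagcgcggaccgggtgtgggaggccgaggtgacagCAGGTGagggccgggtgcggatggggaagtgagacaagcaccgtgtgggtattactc
The match lies 57 bases before the RefSeq start. It describes the letters only, and no binding was measured in these samples.

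Read per kilobase of the longest coding transcript, so that genes of different length can be set side by side, the 10 genes spanned levels from VIM, at a mean of 2060 CPM per kb over the 12 libraries, to TWIST2, at 0.0893. FN1 followed VIM with 1487 CPM per kb and a range of 974.6 to 1962, which overlapped the VIM range of 1883 to 2212. With the length of all exons joined, FN1 (764.8) stood above VIM (746.0), so the order of those 2 depends on the length used, while the order of the other 8 was the same. CDH2 came next at 80.2 CPM per kb and stood clear of its neighbours in every library. SNAI2 (9.69), TWIST1 (6.79), ZEB1 (6.63), SNAI1 (4.37) and ZEB2 (3.80) formed a middle group in which each range overlapped the next. CDH1 lay below them at 0.771 CPM per kb, with a range of 0.403 to 1.02, and TWIST2 lay below CDH1 in every library. The cultures therefore held abundant transcripts of the mesenchymal structural genes, low to moderate levels of 5 of the 6 transcription factors, and little E-cadherin mRNA.

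**Figure D1:**
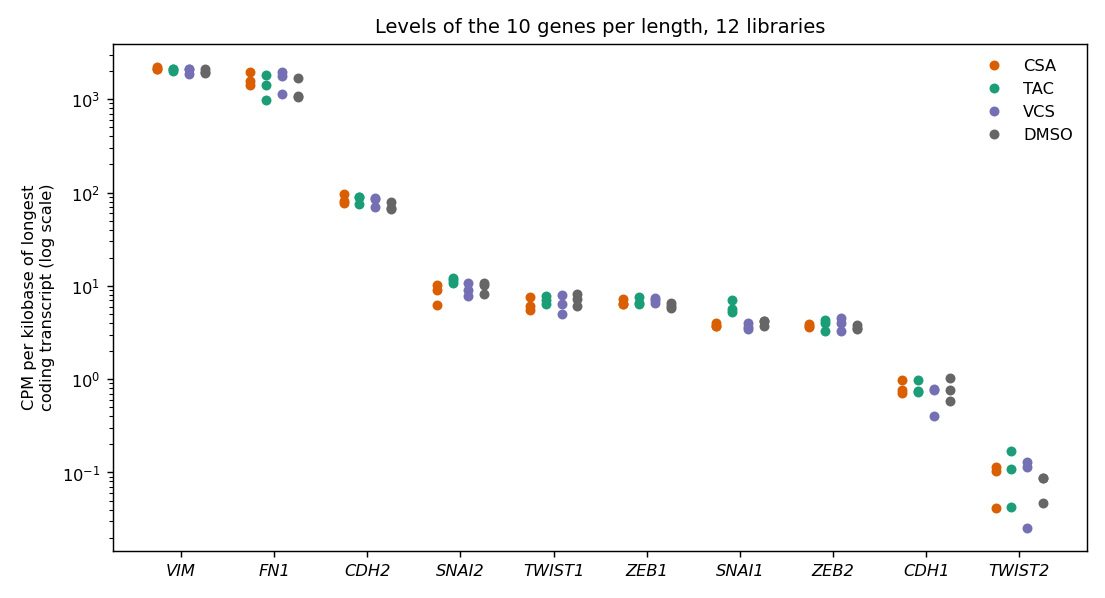
CPM per kilobase of the longest coding transcript on a log axis for the 10 genes, ordered by their mean; each point is 1 library, coloured by group from CSA, TAC and VCS to DMSO. VIM and FN1 overlap near the top, CDH2 stands alone at a mean of 80.2, 5 transcription factors share a band between 3.29 and 12.1, and CDH1 and TWIST2 lie below it.

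None of the 9 tested genes passed an adjusted p of 0.05 in any of the 7 tests by edgeR in the fit by group. The background was equally sparse. Against DMSO, 0.0101% of the 19784 tested genes passed with CSA, 0.0354% with TAC and 0.00505% with VCS. Between inhibitors, 0.0303% passed for CSA against TAC, 0.0101% for VCS against CSA and 0.0253% for TAC against VCS, and 0.0505% passed the test of any difference among the 4 groups. With shares this low, 0 of 9 is not a result particular to these genes. At an unadjusted p under 0.05, SNAI1 passed for TAC against DMSO, where 4.65% of all genes did. SNAI1 and SNAI2 passed for CSA against TAC (7.52% of all genes), SNAI1 passed for TAC against VCS (3.63%), and SNAI1 passed in the test over the 4 groups (3.9%). No gene of the 10 did so for CSA against DMSO (3.75% of all genes), VCS against DMSO (3.27%) or VCS against CSA (2.54%). DESeq2, the other tool run, called SNAI1 alone among the 9 for CSA against TAC (0.233% of all genes called), TAC against VCS (0.202%) and any difference among the 4 groups (0.369%). It called none of the 9 for CSA against DMSO (0.0404% of all genes), TAC against DMSO (0.192%), VCS against DMSO (0.0354%) or VCS against CSA (0.0607%). SNAI1 was also called, alone among the 9, by 2 other edgeR fits. With the library number as a block, these calls were in CSA against TAC (0.329% of all genes called) and TAC against VCS (0.207%), and without the filter on low counts the call was in the test over the 4 groups (0.714% of 39923 genes).

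SNAI1, which encodes Snail, a short-lived zinc finger repressor of CDH1, had the largest difference from DMSO of the 9 genes. The gene lies on chromosome 20 from 49982999 to 49988886 on the plus strand (GRCh38, GENCODE 29) and overlaps no other annotated gene. Its level was 6.32, 6.27 and 6.66 CPM with CSA, 8.80, 9.50 and 11.9 CPM with TAC, and 6.72, 5.76 and 6.15 CPM with VCS, against 7.02, 6.30 and 7.06 CPM with DMSO. Every TAC library stood above all 9 others, and the CSA, VCS and DMSO libraries overlapped. How many of all genes had TAC above all 9 others was not computed, so this order cannot be called rare. These levels rest on 291, 320 and 388 counts with TAC and on 172 to 231 counts in the other 9 libraries. The means were 10.07 ± 1.64 CPM with TAC and 6.79 ± 0.425 CPM with DMSO (SD, n = 3 each).

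SNAI1 was 1.48-fold higher with TAC than with DMSO, a log2 fold change of 0.57 (SE 0.137, 95% interval 0.273 to 0.862). Its edgeR adjusted p was 0.579, so it was not called, and its p of 0.00111 ranked 38 among 19784 genes in edgeR's fit. Without the third TAC library, the highest of the 12, the log2 fold change was 0.43 (SE 0.136), and without all 4 libraries numbered 3 it was 0.455 (SE 0.144). Separation of the TAC libraries above DMSO was met by SNAI1 alone among the 10 genes, while 6% of all tested genes met it. None of the 10 lay wholly below DMSO with TAC, where 6.44% of all genes did. With CSA (4.95% of all genes wholly above and 4.93% wholly below) and with VCS (3.32% and 4.16%), no gene of the 10 was separated from DMSO in either direction.

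The comparison between compounds gave larger differences for SNAI1. It was lower with CSA than with TAC by a log2 fold change of -0.65 (SE 0.137, 95% interval -0.944 to -0.354), with an edgeR adjusted p of 0.353. It was higher with TAC than with VCS by 0.70 (SE 0.137, 95% interval 0.401 to 0.994), with an edgeR adjusted p of 0.227. DESeq2 called both, at an adjusted p of 0.0127 for CSA against TAC and 0.00436 for TAC against VCS, whereas for TAC against DMSO DESeq2 gave an adjusted p of 0.0785. With the library number as a block, the edgeR adjusted p was 0.0441 for CSA against TAC, 0.0361 for TAC against VCS and 0.0877 for TAC against DMSO. Over all alternatives the adjusted p ran from 0.0127 to 0.936, from 0.00436 to 1 and from 0.0785 to 1 for these 3 comparisons in that order. Without the 4 libraries numbered 3, the SNAI1 log2 fold change was -0.536 for CSA against TAC and 0.553 for TAC against VCS (SE 0.145 each). Without the third TAC library these values were -0.51 and 0.559 (SE 0.136 each). Between the analogs, VCS against CSA, the log2 fold change of SNAI1 was -0.05, with a 95% interval of -0.347 to 0.25. The 3 TAC values are shared by all of these TAC comparisons and are not independent of each other.

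Summed markers of other cell types were set beside the SNAI1 result. The 11 hepatocyte markers, none of them at 0 in all libraries, summed to 235 to 450 CPM with CSA, 404 to 467 with TAC and 233 to 447 with VCS, against 245 to 310 with DMSO. All 11 lay above 0 on the log2 fold change scale for CSA against DMSO, as for TAC, and 10 did for VCS (49, 49 and 50.9% of all genes), with medians of 0.444, 0.75 and 0.166. At an unadjusted p under 0.05, 0, 7 and 0 of them passed, where 3.75%, 4.65% and 3.27% of all genes did. None was called by edgeR or DESeq2, with ALB, the gene of serum albumin, the most abundant. The 10 tubular epithelial markers, most of their sum from PAX8, reached 425 to 459 CPM with CSA, 317 to 378 with TAC and 324 to 457 with VCS, against 420 to 536 with DMSO. UMOD was at 0 in all 12, and 4 of the 10, UMOD among them, stayed under 10 counts in every library. The tubular sum thus mainly gives the level of PAX8 and does not show tubular cells. TAC libraries were thus separated from DMSO for both sums, as they were for SNAI1, and the part of either in the SNAI1 difference was not tested. The hepatocyte sums of TAC overlapped those of CSA and of VCS. The tubular sums of TAC lay below those of CSA and overlapped those of VCS. In bulk RNA, fewer cells of a type and less RNA per cell cannot be told apart.

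SNAI2 encodes Slug, the second Snail family repressor, and lies on chromosome 8 from 48917604 to 48921740 on the minus strand. It measured 24.6, 22.0 and 15.3 CPM with CSA, 29.3, 27.8 and 26.2 CPM with TAC and 25.8, 21.7 and 18.9 CPM with VCS, against 26.2, 24.8 and 19.6 CPM with DMSO. Its TAC libraries lay above all CSA and all VCS libraries and overlapped DMSO, where TAC's lowest library, at 26.18 CPM, fell just short of DMSO's highest, at 26.24 CPM. The library numbered 3 was the lowest of its group in all 4 groups. The log2 fold change was -0.43 for CSA against TAC (SE 0.169, 95% interval -0.794 to -0.0645, edgeR adjusted p = 0.605) and 0.33 for TAC against VCS (SE 0.169, 95% interval -0.0374 to 0.691, edgeR adjusted p = 1). Against DMSO it was -0.19 with CSA, 0.24 with TAC and -0.09 with VCS, with SEs of 0.168 to 0.169. Without the third CSA library, the SNAI2 value was -0.252 for CSA against TAC and -0.014 for CSA against DMSO, and without the third DMSO library it was 0.122 for TAC against DMSO. Within each library number, SNAI2 was higher with TAC than with DMSO, and so were SNAI1, ZEB1 and CDH2. The share of all genes in that order was not computed. With the library number as a block, the SNAI2 log2 fold change was -0.451 for CSA against TAC (SE 0.092, edgeR adjusted p = 0.0724). It was 0.34 for TAC against VCS (SE 0.0919, edgeR adjusted p = 0.284). Against DMSO the blocked values were -0.203, 0.249 and -0.0909 with CSA, TAC and VCS (edgeR adjusted p = 0.437, 0.304 and 0.726). For both Snail genes the CSA libraries were wholly below TAC, where 6.74% of all genes were and 6.84% were wholly above, and the TAC libraries were wholly above VCS, where 4.12% of all genes were and 4.65% were wholly below. Between VCS and CSA none of the 10 was separated, against 2.82% of all genes wholly above and 3.05% wholly below.

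**Figure D2:**
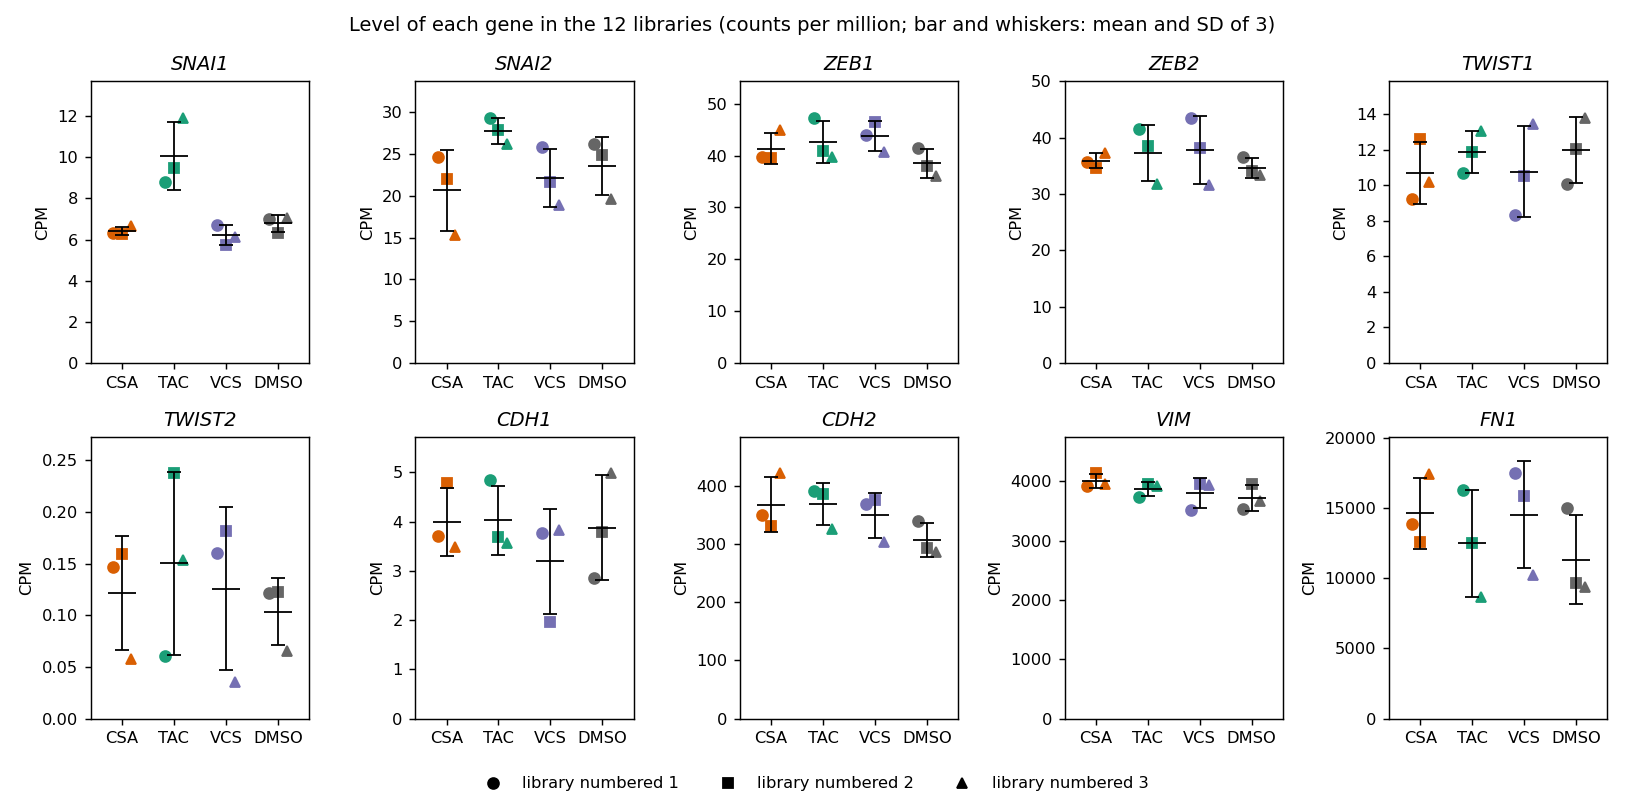
CPM of each of the 10 genes in the 12 libraries, in columns for CSA, TAC, VCS and DMSO; symbols give the library number, and the bar with whiskers is the mean and SD of 3 libraries. SNAI1 is the panel in which the 3 TAC libraries, at 8.80 to 11.9 CPM, sit above every other library, and the triangles show that the libraries numbered 3 often lie at an edge of their group. How many of all genes show that order of TAC was not computed.

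ZEB1 and ZEB2 encode large zinc finger and homeodomain proteins that repress CDH1 and are themselves held down by the miR-200 family. ZEB1 lies on chromosome 10 from 31318495 to 31529814 on the plus strand, and ZEB2 on chromosome 2 from 144364364 to 144524583 on the minus strand. Both overlap annotated antisense genes by gene span, ZEB1-AS1 and ZEB2-AS1. Whether their exons overlap was not examined, and the use of strand in counting is not stated. Reads from any shared exon sequence might therefore not be told apart. ZEB1 measured 39.6, 39.6 and 44.9 CPM with CSA, 47.3, 40.8 and 39.8 CPM with TAC and 44.0, 46.5 and 40.7 CPM with VCS, against 41.5, 38.0 and 36.0 CPM with DMSO. The DMSO group was the lowest on average, at 38.5 ± 2.78 CPM (SD, n = 3), and its libraries overlapped those of each inhibitor. The ZEB1 log2 fold changes against DMSO were 0.10 with CSA, 0.15 with TAC and 0.18 with VCS, each with an SE of 0.098, and the highest upper bound of their 95% intervals was 0.396.

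ZEB2 averaged 35.9 ± 1.32 CPM with CSA, 37.3 ± 4.99 with TAC and 37.8 ± 6.0 with VCS, against 34.65 ± 1.76 CPM with DMSO (SD, n = 3 each). Its lowest and highest libraries over all groups were 31.5 and 43.5 CPM, both with VCS, so the spread within that group exceeded every difference between means. The log2 fold changes against DMSO were 0.05, 0.11 and 0.12 with CSA, TAC and VCS, with an SE of 0.122 each.

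TWIST1 and TWIST2 encode basic helix-loop-helix factors that bind E-boxes and induce CDH2 in several systems. TWIST1, on chromosome 7 from 19020991 to 19117672 on the minus strand, overlaps an antisense gene. It measured 9.23, 12.6 and 10.2 CPM with CSA, 10.7, 11.9 and 13.1 CPM with TAC and 8.32, 10.5 and 13.4 CPM with VCS, against 10.1, 12.1 and 13.8 CPM with DMSO. The 4 groups overlapped throughout, and the log2 fold changes against DMSO were -0.17, -0.01 and -0.15 with CSA, TAC and VCS (SE 0.180 to 0.181). TWIST2, on chromosome 2 from 238848032 to 238910543 on the plus strand, summed to 12 counts over the 3 CSA libraries, 15 over TAC and 12 over VCS, against 10 over DMSO. Single libraries held 1 to 8 counts, so no fold change was computed and differences were not detectable at this depth.

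CDH1 encodes E-cadherin, the adherens junction protein whose loss defines the transition in many epithelia. The gene lies on chromosome 16 from 68737225 to 68835548 on the plus strand and overlaps an antisense gene. It measured 3.70, 4.78 and 3.48 CPM with CSA, 4.84, 3.68 and 3.56 CPM with TAC and 3.78, 1.97 and 3.83 CPM with VCS, against 2.86, 3.78 and 4.98 CPM with DMSO. These are 65 to 160 counts a library, and the 4 groups overlapped. The log2 fold changes against DMSO were 0.04 with CSA (SE 0.269), 0.06 with TAC (SE 0.268) and -0.28 with VCS (SE 0.272). Their 95% intervals spanned -0.538 to 0.622, -0.522 to 0.637 and -0.868 to 0.306. The lowest value, in the second VCS library, set the VCS mean: without it the log2 fold change for VCS against DMSO was -0.03. SNAI1 and CDH1, repressor and target in many epithelia, had a Pearson r of 0.225 and a Spearman rho of 0.0559 over the 12 libraries (permutation p = 0.462 and 0.871, adjusted over 36 pairs 0.722 and 0.92).

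CDH2 encodes N-cadherin and lies on chromosome 18 from 27950966 to 28177446 on the minus strand, overlapped by an antisense gene. It measured 350.0, 330.5 and 420.9 CPM with CSA, 391.5, 385.6 and 326.0 CPM with TAC and 368.0, 374.6 and 303.9 CPM with VCS, against 339.1, 293.1 and 286.8 CPM with DMSO. The mean was higher with each inhibitor than with DMSO, and in each case the highest DMSO library stood above the lowest inhibitor library. The log2 fold changes were 0.26 with CSA (95% interval -0.00932 to 0.532), 0.26 with TAC (-0.00725 to 0.534) and 0.19 with VCS (-0.083 to 0.458), with an SE of 0.125 each, and the edgeR adjusted p-values were 0.939, 0.92 and 0.963. The 3 comparisons share the DMSO libraries. Without the 4 libraries numbered 3 the CSA value was 0.107.

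The ratio of CDH2 to CDH1, per kilobase of coding transcript, averaged 107 ± 29.5 with CSA, 104 ± 13.4 with TAC and 138 ± 67.3 with VCS, against 95.5 ± 35.2 with DMSO (SD, n = 3 each). The highest library, with VCS, reached 215 and held 65 CDH1 counts, and the lowest, with DMSO, was at 65.0. N-cadherin transcripts thus outnumbered E-cadherin transcripts in every library, and the groups overlapped.

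VIM encodes vimentin, on chromosome 10 from 17228259 to 17237593 on the plus strand, where VIM-AS1 overlaps it. It took 0.349 to 0.418% of all counts in a library and was the steadiest of the 10 genes, its highest library 1.18 times its lowest. Its level was 3918, 4133 and 3949.7 CPM with CSA, 3733, 3947 and 3922 CPM with TAC and 3517, 3958 and 3941 CPM with VCS, against 3540.05, 3957 and 3659.8 CPM with DMSO. The groups overlapped, and the log2 fold changes against DMSO were 0.11, 0.06 and 0.03 with CSA, TAC and VCS. Their SEs were 0.099, and all 95% intervals lay between -0.18 and 0.318.

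FN1 encodes fibronectin, the matrix glycoprotein that cells bind through integrins, on chromosome 2 from 215360440 to 215436172 on the minus strand. It ranked 2 or 3 by counts in each library, at 0.879 to 1.73% of all counts. It measured 13874, 12580.3 and 17457 CPM with CSA, 16271, 12507 and 8679 CPM with TAC and 17469.7, 15863 and 10232 CPM with VCS, against 14979.7, 9649 and 9349.96 CPM with DMSO. Each group spanned a wide range, and the inhibitor groups overlapped DMSO. The log2 fold changes were 0.37 with CSA (95% interval -0.192 to 0.932), 0.14 with TAC (-0.421 to 0.702) and 0.36 with VCS (-0.203 to 0.92), with an SE of 0.26. For CSA it was 0.225 without the third CSA library, the highest of its group, 0.623 without the first DMSO library, the highest of the controls, and 0.104 without the 4 libraries numbered 3. For TAC it was -0.0957 without the first TAC library and 0.395 without the first DMSO library. For VCS, single libraries left out gave 0.202 to 0.607.

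**Figure D3:**
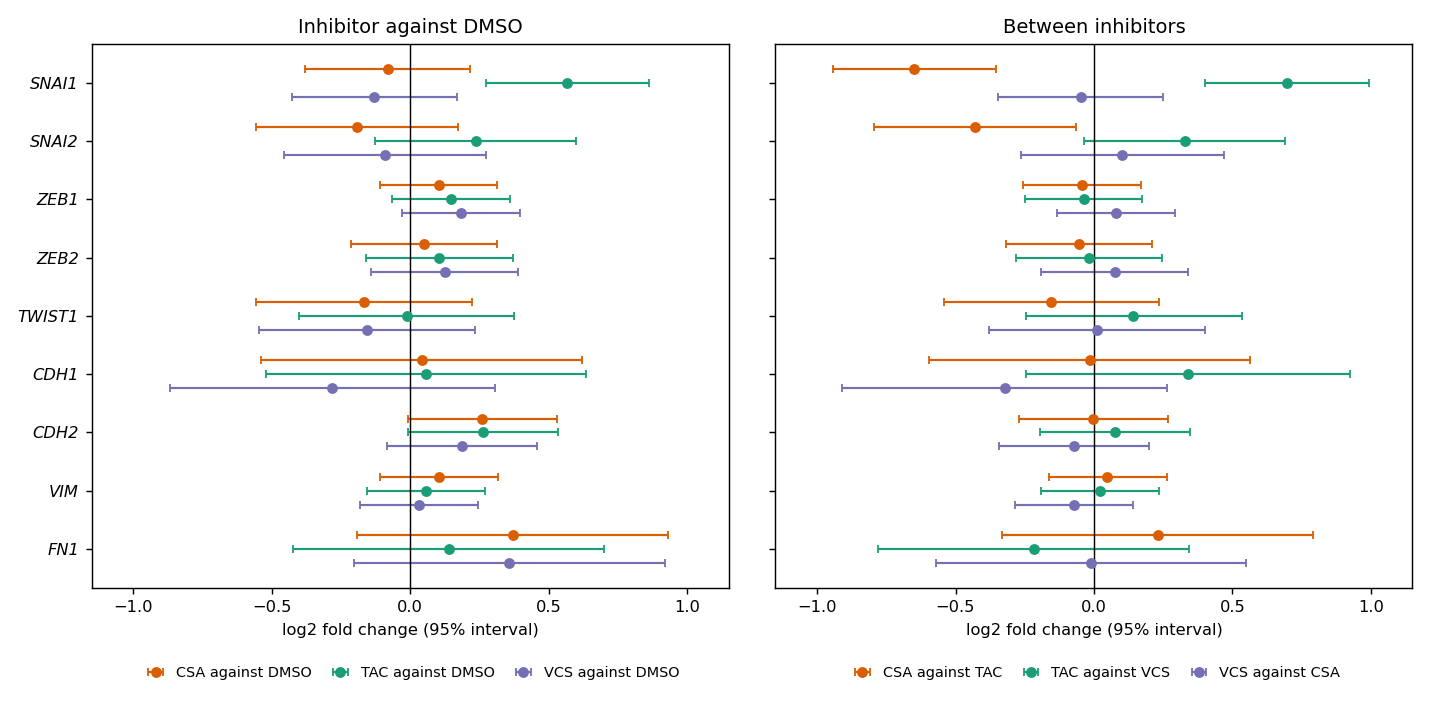
Log2 fold changes with 95% intervals from edgeR for the 9 tested genes, each inhibitor against DMSO on the left and between inhibitors on the right. The SNAI1 intervals for TAC against DMSO (0.273 to 0.862), CSA against TAC (-0.944 to -0.354) and TAC against VCS (0.401 to 0.994) exclude 0, as does the SNAI2 interval for CSA against TAC (-0.794 to -0.0645), and all others include it; the intervals are not adjusted for the number of genes, and none of these genes was called in this fit.

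Over the 9 tested genes, 6 fold changes were above 0 for CSA against DMSO, 8 for TAC and 5 for VCS, where 49, 49 and 50.9% of all genes were. The median log2 fold changes of the 9 were 0.0503, 0.141 and 0.0332, against -0.00432, -0.00439 and 0.00415 over all 19784 genes. SNAI1 and SNAI2 lay below 0 with CSA and VCS and above 0 with TAC, although the SNAI2 sign for VCS turned when the third VCS library was left out. CDH2, FN1, VIM, ZEB1 and ZEB2 lay above 0 with all 3, although without the 4 libraries numbered 3 the signs of ZEB1 and ZEB2 turned for CSA and that of VIM turned for VCS, and without the first TAC library that of FN1 turned for TAC. TWIST1 lay below 0 with all 3, and CDH1 lay above 0 with CSA and TAC and below 0 with VCS, although leaving out single libraries turned the TWIST1 sign for TAC and the CDH1 sign for CSA and TAC. Between the analogs, VCS against CSA, 4 of 9 lay above 0 (50.9% of all genes) with a median of -0.0114. The largest of those differences was that of CDH1, at -0.32 (95% interval -0.909 to 0.263), which was -0.0707 without the second VCS library, and none of the 9 intervals excluded 0.

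Levels of several members were correlated across the libraries. All 36 pairs of the 9 tested genes were compared over the 12 libraries on log2 CPM, with permutation p-values of 100000 resamples adjusted over the 36. The resamples shuffled all 12 libraries freely, without regard to group or library number. The p-values therefore treat the libraries as exchangeable and are too small where libraries of a group or number are alike. For 8 pairs both the Pearson and the Spearman p passed 0.05 after adjustment. The share of pairs of other genes that would pass was not computed, so the 8 cannot be called particular to these genes. ZEB1, ZEB2, CDH2 and FN1 were correlated positively with each other, making up 6 of the 8 pairs: r was 0.831 for CDH2 with FN1, 0.849 for ZEB2 with FN1, 0.812 for ZEB1 with FN1, 0.824 for ZEB1 with CDH2, 0.74 for ZEB2 with CDH2 and 0.717 for ZEB1 with ZEB2. Their rho values ran from 0.727 to 0.839, their adjusted p of r from 0.0108 to 0.0395 and their adjusted p of rho from 0.0179 to 0.0427. TWIST1 ran against 2 of them, with an r of -0.837 with FN1 (rho -0.818, adjusted p 0.0108 and 0.0179) and -0.776 with ZEB2 (rho -0.734, adjusted p 0.0188 and 0.0427).

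These relations held their sign without the 2 libraries farthest from the median of 1 gene of the pair, with r between 0.634 and 0.833 for the positive pairs and -0.784 and -0.698 for the TWIST1 pairs. Library number moved with them. For each of ZEB1, ZEB2, CDH2 and FN1, the library numbered 3 was the lowest of its group in 3 groups and the highest with CSA, and for TWIST1 it was the highest in 3 groups. What part library number had in these relations was not tested further. Within the 8 libraries numbered 1 and 2, r was 0.749 for CDH2 with FN1, 0.796 for ZEB2 with FN1, 0.821 for ZEB1 with FN1, 0.771 for ZEB1 with CDH2, 0.775 for ZEB2 with CDH2 and 0.787 for ZEB1 with ZEB2. In those 8 libraries the TWIST1 pairs had an r of -0.717 with FN1 and -0.591 with ZEB2. The 4 libraries numbered 3 were too few for a value of their own, and the points share groups, libraries and scaling.

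**Figure D4:**
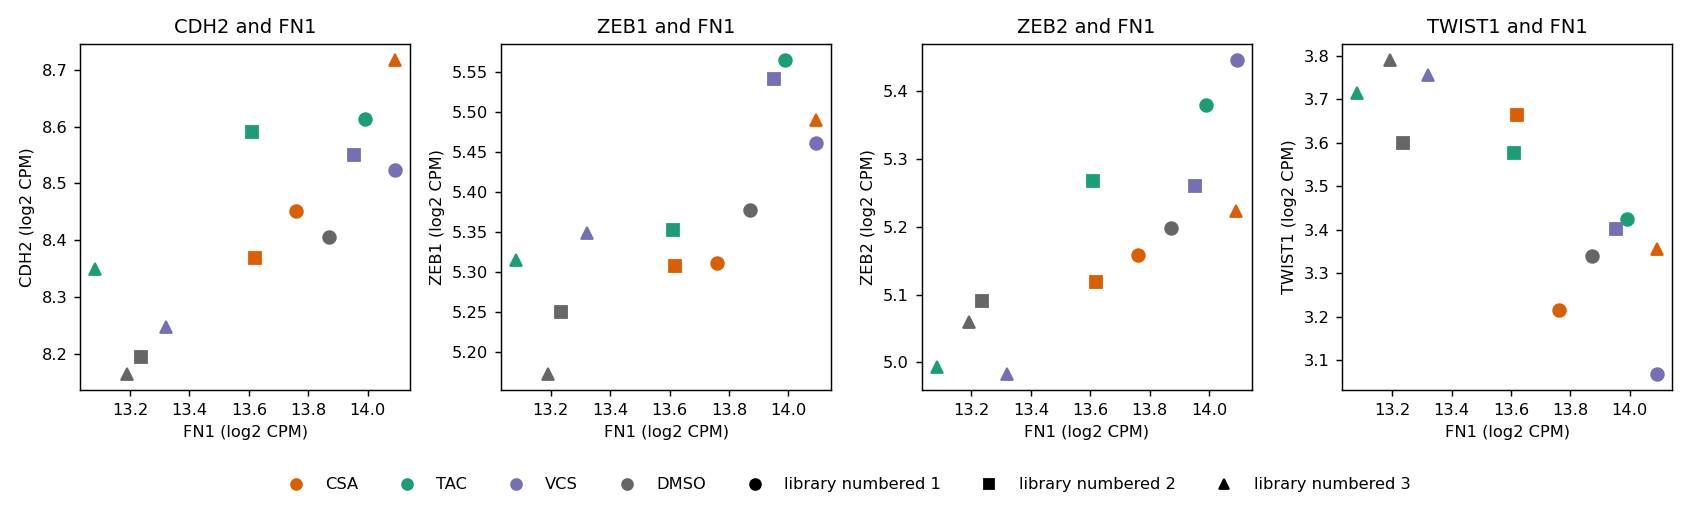
Levels of CDH2, ZEB1, ZEB2 and TWIST1 against FN1 in the 12 libraries, all in log2 CPM, coloured by group with symbols for library number. CDH2, ZEB1 and ZEB2 climb with FN1 (r of 0.831, 0.812 and 0.849) and TWIST1 descends (r of -0.837), and libraries numbered 3 (triangles) of TAC, VCS and DMSO lie at the low end of FN1 while that of CSA lies at the high end.

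The genes most like each member over the 12 libraries were sought among 12496 others by Pearson r of log2 CPM. SNAI1 was closest to ID3 (0.956), PPME1 (0.937) and PTCHD4 (0.908), and SNAI2 to TUBA4A (0.963), ID2 (0.938) and H2BC12 (0.935). The Spearman rho was 0.776 for SNAI1 with ID3 and 0.958 for SNAI2 with ID2. ID2 and ID3 encode helix-loop-helix proteins that lack a basic region and keep basic helix-loop-helix factors off DNA. FN1 was closest to TENM4 (0.987), FAT1 (0.986) and KIAA1549L (0.985), large membrane proteins in the first 2 cases, and CDH2 to HS2ST1 (0.975), HSPA13 (0.97) and FKBP14 (0.958). ZEB1 was closest to TRAPPC8 (0.937), LIFR and UBR3, ZEB2 to DENND4A (0.965), TAOK1 and ZNF770, and TWIST1 to RUFY1 (0.958), EXOSC8 and ZCCHC4. FAXDC2 (0.872) and TEN1-CDK3 (0.821) were among the 3 genes most like CDH1 by r, with lower rho of 0.545 and 0.615. VIM was closest to PHGDH (0.911), ASNS and MTG1, of which PHGDH and ASNS make serine and asparagine. These are the highest of many correlations and describe these libraries only.

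Genes around the set were counted by role in 8 lists with 145 different genes, of which 127 were tested. None of them passed the edgeR test in either direction in any of the 7 tests, while at an unadjusted p under 0.05 a list held 0 to 4 genes in a comparison. The 4 were of the 26 mesenchymal genes for TAC against DMSO, where 4.65% of all genes passed. DESeq2 called genes in 1 of the lists, as given with the mesenchymal genes. Of all genes, 49, 49 and 50.9% lay above 0 against DMSO with CSA, TAC and VCS, which holds beside each count below. The 3 comparisons share the DMSO libraries, and genes of a list may move together across libraries. The counts above 0 are therefore descriptions and not tests. Of 15 other transcription factors linked to the transition, 11 were tested, and 3, 7 and 1 lay above 0 with CSA, TAC and VCS, with medians of -0.0638, 0.0352 and -0.0468. The most abundant were SOX4, with log2 fold changes of 0.01, 0.04 and -0.03, HMGA2, with -0.08, 0.06 and 0.06, and TCF3, with 0.06, -0.003 and -0.07, in the same order of compounds. Of 15 factors that guard the epithelial state, 12 were tested, and 3, 6 and 7 lay above 0, with medians of -0.197, -0.0109 and 0.064. ELF3, an epithelial ETS factor, averaged 22.9 ± 5.18 CPM with CSA, 19.55 ± 3.78 with TAC and 23.5 ± 7.10 with VCS, against 26.4 ± 6.78 with DMSO (SD, n = 3 each), ahead of FOXA1 and KLF5. Of 20 upstream inducers of the TGF-beta, Wnt, Notch and growth factor pathways, all tested, 16, 13 and 14 lay above 0, with medians of 0.154, 0.0942 and 0.0937. The most abundant of them, HIF1A, TGFBR1 and TGFB2, had log2 fold changes of 0.12, 0.09 and 0.25 with CSA, 0.11, 0.14 and 0.12 with TAC, and 0.17, 0.19 and 0.14 with VCS.

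Of 26 mesenchymal genes, all tested, 21, 17 and 23 lay above 0 with CSA, TAC and VCS (49, 49 and 50.9% of all genes), with median log2 fold changes of 0.168, 0.174 and 0.142. These counts share the DMSO libraries, and whether the list moved as a set was not tested. SPARC and COL1A1, matrix genes, had 0.13 and 0.27 with CSA, -0.10 and -0.01 with TAC, and 0.11 and 0.03 with VCS. DESeq2 called 2 of these 26 genes for TAC against DMSO, where it called 0.192% of all genes, and they are named here after their values were seen. TGFBI, a TGF-beta induced matrix protein gene, averaged 964.8 ± 86.0 CPM with CSA, 1268 ± 58.8 with TAC and 964.1 ± 61.7 with VCS, against 862.4 ± 58.8 with DMSO (SD, n = 3 each). Its log2 fold change for TAC against DMSO was 0.56 (SE 0.103), with an adjusted p of 1.14e-05 in DESeq2 and 0.133 in edgeR, and DESeq2 also called it for CSA against TAC and TAC against VCS (adjusted p of 0.0159 and 0.0203). DDR2, a collagen receptor gene, was low, with at most 118 counts in a library. It averaged 2.79 ± 0.586 CPM with CSA, 2.65 ± 0.137 with TAC and 1.59 ± 0.326 with VCS, against 1.30 ± 0.238 with DMSO. Its log2 fold changes against DMSO were 1.10 with CSA, 1.03 with TAC (SE 0.229 each) and 0.29 with VCS (SE 0.235). The edgeR adjusted p-values were 0.708, 0.426 and 0.963. Of 24 epithelial junction and keratin genes, all tested, 13, 11 and 12 lay above 0, with medians of 0.0889, -0.0118 and 0.0214. The keratin KRT19 averaged 1028 ± 53.2 CPM with CSA, 879.4 ± 51.6 with TAC and 1013 ± 21.4 with VCS, against 1037 ± 20.2 with DMSO (SD, n = 3 each), and KRT7 averaged 787.2 ± 91.6, 1004 ± 54.4 and 782.8 ± 39.4 against 809.4 ± 32.0 CPM. KRT8 stayed between 876.9 and 894.6 CPM in the group means.

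Of 20 other cadherins, 12 were tested, and 8, 7 and 8 lay above 0 against DMSO, with medians of 0.143, 0.12 and 0.165. CDH13, a cadherin with a lipid anchor in place of a cytoplasmic tail, averaged 151.9 ± 26.2 CPM with CSA, 123.9 ± 31.4 with TAC and 141.6 ± 42.3 with VCS, against 107.7 ± 25.0 with DMSO (SD, n = 3 each). CDH11, the mesenchymal type II cadherin, and CDH24 had log2 fold changes of 0.22 and -0.03 with CSA, 0.13 and -0.22 with TAC and 0.26 and -0.19 with VCS. Of 15 catenins and other cadherin partners, 13 were tested, and 13, 8 and 11 lay above 0, with medians of 0.195, 0.0936 and 0.0828. CTNNA1, VCL and CTNNB1, which link cadherins to actin or carry Wnt signals, had 0.18, 0.29 and 0.30 with CSA, 0.15, 0.15 and 0.30 with TAC, and 0.14, 0.27 and 0.34 with VCS, with SEs of 0.129, 0.181 and 0.225. Of 16 fibronectin and vimentin partners, 15 were tested, and 11, 10 and 11 lay above 0, with medians of 0.266, 0.0534 and 0.209. ITGB1, FBN1 and PLEC, an integrin chain, a fibrillin and a linker of intermediate filaments, had 0.29, 0.35 and 0.32 with CSA, 0.21, 0.25 and -0.07 with TAC, and 0.30, 0.36 and 0.17 with VCS. KRT8, KRT18, ITGB1, FBN1, ITGAV and ITGA5 stand in 2 of these lists.

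Among markers of other cell types, the airway and basal epithelial list alone held genes called by edgeR. SFTPA1, a surfactant protein gene, averaged 0.201 ± 0.0767 CPM with CSA, 0.171 ± 0.172 with TAC and 3.34 ± 1.32 with VCS, against 3.72 ± 0.618 CPM with DMSO (SD, n = 3 each). It fell by 4.19 on the log2 scale with CSA and by 4.41 with TAC, at edgeR adjusted p-values of 0.0258 and 0.0143, and its near-identical paralog SFTPA2, called in the test over the 4 groups (edgeR adjusted p = 0.0353), may share its reads. SFTPA1 was also called for VCS against CSA, at a log2 fold change of 4.04, and for TAC against VCS, at -4.26, with edgeR adjusted p-values of 0.0217 and 0.00926. DESeq2 called SFTPA1, SFTPA2 and the basal keratin genes KRT5 and KRT14 for CSA against DMSO, TAC against DMSO, VCS against CSA and TAC against VCS. Of its 13 tested genes, 3, 4 and 9 lay above 0 with CSA, TAC and VCS, with medians of -1.06, -0.655 and 0.395. Its most abundant gene, the surfactant protein gene SFTPB, had log2 fold changes of 0.76 with CSA and 0.81 with TAC, and the mucin gene MUC5B had 0.91 and 1.13, none of them called by edgeR or DESeq2. The 15 markers of that list, none at 0 in all libraries, summed to 28.8 to 34.2 CPM with CSA, 29 to 35.2 with TAC and 43.8 to 68.6 with VCS, against 33.4 to 56.0 with DMSO. Endothelial and leukocyte sums overlapped between each inhibitor and DMSO, at 7.31 to 18.6 and 56.7 to 90.3 CPM over all libraries. The CSA libraries were low in SFTPA1, and their SNAI1 levels of 6.27 to 6.66 CPM overlapped those of 6.30 to 7.06 CPM with DMSO. Any part of airway or basal epithelial transcripts in the SNAI1 levels was not tested.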

How the data were processed

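Poly(A) RNA was sequenced from 12 libraries in 4 groups of 3, with in-line UMIs and ERCC spike-ins per the labels. Per the submitters' processing notes, Salmon and GRCh38 were used; versions, annotation and use of strand are not given in the sources used here. The deposited table holds estimated counts per gene, rounded to whole numbers by the authors, as read from the values. Whether UMIs were collapsed is not stated, so intervals cover counting error and library spread only.

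Symbols were found for 62252 of 62262 genes, and positions came from GENCODE 29. Genes were kept by filterByExpr (minimum count 10), scaled by TMM and fitted with edgeR 4.0.16 (R 4.3.3, limma 3.58.1) in 1 model of the 12 libraries by group, which left 8 residual degrees of freedom. Tests were two-sided, with Benjamini-Hochberg adjustment over 19784 genes and calls under 0.05. CPM use TMM library sizes; log2 CPM for correlations use a prior count of 2. SEs and 95% intervals come from the F statistic. The 10 genes, the gene lists and the tests were chosen with earlier results of these data known. Named genes were the 10 members, called list genes or otherwise the 3 most abundant of a list, and the 3 genes most correlated with each member; ALB, PAX8, SYNPO, WT1, NPHS1, UMOD, TGFBI, DDR2, KRT5, KRT14, SFTPB and MUC5B, and repeats across lists, were named besides, and 3 genes that the rules or checks would name are not reported here. Alternatives were RLE scaling, no filter, DESeq2 1.42.0, only the groups compared, replicate block, robust spread, and leaving out libraries. On counts simulated for TAC against DMSO over 19784 genes, the test recovered 29.9% of 1.5-fold, 61.2% of 2-fold and 78.8% of 4-fold changes, with 4 false calls. The simulation changed 67, 67 and 66 genes by these folds at once and held no effect of library number. More changed genes ease the adjusted threshold, and the real comparison called 7 genes. These shares are therefore not the chance of calling such a change in these data.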

Additional observations from a re-analysis of the deposited data

How the results depend on the processing

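No gene of the set was called in CSA, TAC or VCS against DMSO or in VCS against CSA under any alternative. SNAI1 was the 1 member called, under DESeq2 and under the replicate block in CSA against TAC and in TAC against VCS, and under DESeq2 and without the filter in the test over the 4 groups. Leaving out single libraries gave 0 members called in every comparison. Of 54 member fold changes, 31 kept their sign in every alternative and 23 did not, and the largest of those 23 was 0.229 in size as reported. The cause was not tested. Without the 4 libraries numbered 3, fewer samples gave log2 fold changes of -0.00538 for ZEB1 and -0.00565 for ZEB2 (CSA against DMSO), 0.0258 for TWIST1 (TAC against DMSO), -0.00686 for VIM (VCS against DMSO), -0.119 for FN1 (CSA against TAC), and -0.214 for TWIST1, 0.123 for CDH2 and 0.331 for FN1 (VCS against CSA).

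Leaving out single libraries gave these ranges of log2 fold change where the sign turned. For CSA against DMSO they were -0.137 to 0.263 for CDH1. For TAC against DMSO they were -0.121 to 0.103 for TWIST1, -0.119 to 0.279 for CDH1 and -0.0957 to 0.395 for FN1. For VCS against DMSO they were -0.217 to 0.0052 for SNAI2 and -0.00661 to 0.0849 for VIM. For CSA against TAC they were -0.106 to 0.0377 for ZEB1, -0.157 to 0.0303 for ZEB2, -0.163 to 0.137 for CDH1 and -0.111 to 0.0705 for CDH2. For VCS against CSA they were -0.0752 to 0.25 for SNAI2, -0.0365 to 0.188 for ZEB2, -0.179 to 0.17 for TWIST1, -0.152 to 0.0356 for CDH2 and -0.163 to 0.188 for FN1. For TAC against VCS they were -0.118 to 0.0152 for ZEB1, -0.13 to 0.0948 for ZEB2, -0.0125 to 0.336 for TWIST1, -0.0113 to 0.155 for CDH2 and -0.0304 to 0.0588 for VIM.

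The replicate numbers share no stated batch. Same-number deviations from the group means correlated at 0.00694 to 0.532, over 0.1 in 14 of 18 pairs, against -0.427 to 0.263 for other numbers, and 11 of 12 libraries correlated best with one of their own number, a hint from the data of an effect shared within numbers. In 3 comparisons all 3 pairs were over 0.1 (CSA against DMSO, TAC against DMSO and TAC against VCS) and in the other 3 not all were. The same fit of all 4 groups, without the block, was reported for every comparison. For CSA against DMSO, TAC against DMSO and TAC against VCS it leaves out a pairing that these correlations hint at. The lack of calls there depends on that choice and should be read with the blocked values. With the block, SNAI1 had an edgeR adjusted p of 0.0441 for CSA against TAC, 0.0361 for TAC against VCS and 0.0877 for TAC against DMSO, CDH2 in CSA against TAC was 0.005 and TWIST1 in VCS against CSA was -0.00319. CDH2 against DMSO had blocked log2 fold changes of 0.268, 0.263 and 0.188 with CSA, TAC and VCS, at adjusted p-values of 0.419, 0.354 and 0.537. In the block fit 6, 41 and 0 of all genes were called with CSA, TAC and VCS against DMSO, 65 for CSA against TAC, 6 for VCS against CSA, 41 for TAC against VCS and 34 for any difference, where the fit without it called 2, 7, 1, 6, 2, 5 and 10.

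In the same order, all-gene calls were 86, 131, 69, 87, 70, 101 and 285 without the filter and 8, 38, 7, 46, 12, 40 and 73 with DESeq2. With only the groups compared they were 2, 1, 0, 1, 3 and 0 for the 6 pairs. Robust estimation gave 2, 7, 0, 5, 1, 8 and 10, and leaving out the 4 libraries numbered 3 gave 0, 3, 1, 1, 6, 9 and 7. Leaving out single libraries gave 0 to 2, 0 to 10, 0 to 8, 0 to 6, 0 to 7, 0 to 12 and 1 to 23. Depth limited TWIST2, at 1 to 8 counts, and CDH1, at 65 to 160 counts. With 3 libraries a group, an exact permutation test cannot go below 0.1.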
